A study of Mus musculus with 6 samples.

Results

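The cholesterol efflux and liver X receptor (LXR) pathway was examined through 10 genes, chosen by name and matched by Ensembl identifier to symbol. All 10 were found among the 14298 genes listed. They are the receptor genes Nr1h3, Nr1h2 and Rxra, the transport genes Abca1, Abcg1, Scarb1 and Pltp, the esterification genes Soat1 and Nceh1, and Mylip. PolyA RNA from whole aortic arches of adult C57/BL6 mice was sequenced in 6 libraries. The 3 knockout libraries (S595, S598 and S599) came from mice of genotype ApoE-/-; RBPJflox/flox with the Cdh5-CreERT transgene, a tamoxifen-activated recombinase driven by the promoter of the endothelial cadherin gene. The 3 control libraries (S591, S592 and S594) came from ApoE-/-;RBPJflox/flox mice without that transgene, so the groups differ in the recombinase itself as well as in the deletion of Rbpj that it induces. Mice of both groups lacked apolipoprotein E, received tamoxifen for 1 week from an age of 8 weeks and then ate a high-fat diet for 6 weeks. The series title asks about endothelial Jag1 and RBPJ signalling in leukocyte recruitment and atherosclerosis, and the comparison here is how the sterol export genes of the arch stood between the genotypes.

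LXRs are nuclear receptors that bind oxysterols, pair with retinoid X receptors and switch on genes that carry cholesterol out of the cell. In the macrophages of an atherosclerotic plaque they drive Abca1 and Abcg1, which load cholesterol onto apolipoprotein A-I and onto high-density lipoprotein. Cholesterol that is not exported is stored as ester by Soat1 and released again by Nceh1, and Mylip (also called IDOL) limits uptake by sending lipoprotein receptors for degradation. The LXR dimer classically binds DR4 elements, which are 2 copies of a hexamer separated by a spacer of 4 bases.

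The Abca1 promoter is shown because Abca1 is the classic LXR target of the set and was the 1 gene of the 8 with a RefSeq promoter entry that held the repeat searched for. The search used a relaxed form of the repeat, GGTNA and GGTNA separated by any 5 bases, on both strands of windows from 250 bases before to 50 bases after each annotated start, credited to RefSeq on build GRCm38.p6. The stretch runs over chr4:53159846-53160145 on the minus strand, printed 5′ to 3′ with the match in capitals.
Abca1: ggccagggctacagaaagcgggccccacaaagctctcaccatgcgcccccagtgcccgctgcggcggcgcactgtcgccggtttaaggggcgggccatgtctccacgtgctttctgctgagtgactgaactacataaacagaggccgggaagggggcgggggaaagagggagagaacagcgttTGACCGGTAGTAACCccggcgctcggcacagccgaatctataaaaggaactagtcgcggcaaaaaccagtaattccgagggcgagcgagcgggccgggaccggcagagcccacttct
The match reads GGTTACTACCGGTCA on the opposite strand and lies between offsets −67 and −53 from the first transcribed base, counted as 0. No other promoter entry of Nr1h3, Nr1h2, Rxra, Pltp, Soat1, Nceh1 or Mylip held these letters, which occurred in 0.718% of the 32851 promoters in the table. The exact repeat, AGGTCA and AGGTCA separated by any 4 bases, of which every instance also matches the relaxed form, occurred in 0.0152% of the promoters and in none of these. Abcg1 and Scarb1 had no entry. The letters describe this window alone.

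Levels are normalised CPM, that is reads scaled by library size. The 6 libraries held 5904504 to 10072495 reads of listed genes, of which each of the 10 genes took between 177 and 6244. A positive log2 fold change means higher in the knockout, on the log2(CPM + 1) scale, from limma over all 14298 genes, with Benjamini-Hochberg adjustment over all of them and a threshold of 0.05. The targeted gene Rbpj had 169, 197 and 212 CPM in the knockout libraries, against 174, 191 and 200 CPM in the controls, and whole-arch RNA does not show the deletion in endothelium. Cdh5, whose promoter drives the recombinase, had 109, 111 and 198 CPM in the knockout libraries, against 123, 126 and 146 CPM in the controls. Summed over 12 endothelial markers, the arches held 993 to 1484 CPM in the knockout and 1224 to 1291 CPM in the control libraries. Smooth muscle markers (10) summed to 23253 to 31698 CPM in the knockout and 13097 to 22955 CPM in the control libraries, and airway markers (4 of 5 listed) to 67.9 to 92.4 and 4.97 to 17.3 CPM. Fibroblast markers (7) summed to 8454 to 11450 CPM in the knockout and 11825 to 19325 CPM in the control libraries. These 3 sums did not overlap between the groups, and their part in the results was not tested. By single marker, groups lay apart for 5 of 10 smooth muscle and 3 of 4 airway markers (knockout higher). They lay apart for 3 of 7 fibroblast markers (knockout lower). Over all genes 11.3% lay apart with the knockout higher and 14.2% with the knockout lower. Fat markers (7) summed to 410 to 711 CPM in the knockout and 308 to 1534 CPM in the control libraries, with control S591 the highest. Thymocyte and T cell markers (8) summed to 23.6, 179 and 81.8 CPM in knockouts S595, S598 and S599, against 27.6 to 36.4 CPM in the controls.

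Across the 10 genes the fold changes ran from −1.10 to −0.03, all on the lower side in the knockout arches, with a median of −0.61. Over all genes 52.2% had a negative fold change and the median was −0.02. By limma 0 of the 10 passed the adjusted threshold, where 0.0210% of all genes passed in either direction and 0 passed on the lower side. With an unadjusted p under 0.05 there were 6 of the 10 on the lower side and 0 on the higher side, where 12.0% of all genes were lower and 8.04% higher. These 6 were Abcg1, Pltp, Nceh1, Abca1, Nr1h3 and Soat1. The groups did not overlap, with the knockout lower, for 4 of the 10 (Abcg1, Pltp, Nceh1 and Nr1h3), against 14.2% of all genes. The edgeR quasi-likelihood test and limma-voom each called 0 of the 10 as well (6 each at an unadjusted p of 0.05, where the share of all genes was not counted). DESeq2 and limma with array weights each called Abcg1, Pltp and Nceh1 lower, where they called 4.56% and 5.06% of all genes lower and 2.13% and 2.01% higher. The DESeq2 shares, here and below, are of the 13450 genes to which it gave an adjusted p. Without control S594 or without knockout S598 the count of 6 was 3 (share of all genes not counted), and the median without S598 was −0.38. In RNA from a whole tissue, fewer cells of a type and less RNA per cell cannot be told apart.

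**Figure D1:**
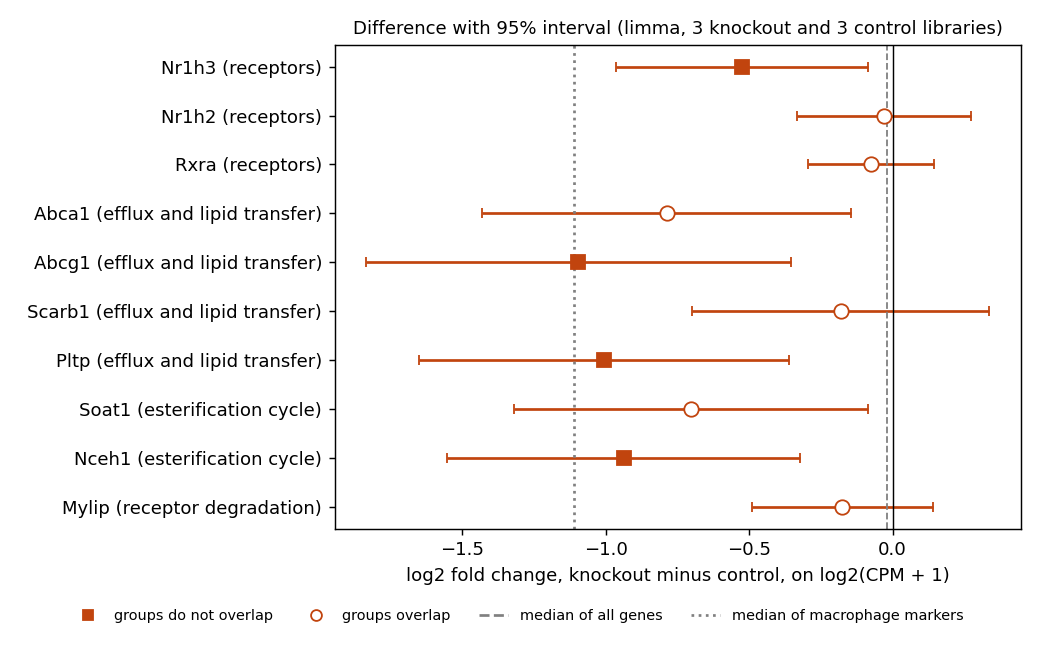
Log2 fold change (knockout minus control, x axis) of each of the 10 genes with its 95% interval from limma, 3 libraries per group. Filled squares mark genes whose groups do not overlap, the dashed line is the median of all genes (−0.02) and the dotted line the median of 19 macrophage markers (−1.11); Abcg1 lies nearest the dotted line and Nr1h2 nearest the dashed line.

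Among the receptors, the LXR alpha gene Nr1h3 (ENSMUSG00000002108), which is high in macrophages and liver, was the one whose 95% interval lay below 0. Its level was 27.3, 19.8 and 33.0 CPM in knockouts S595, S598 and S599, against 39.9, 33.6 and 41.1 CPM in controls S591, S592 and S594. The groups lay apart by a narrow gap between knockout S599 and control S592. This gave a log2 fold change of −0.52 (standard error 0.19) and a 95% interval from −0.96 to −0.09 (limma adjusted p = 0.188, lower in 3 of 3 knockout libraries).

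The LXR beta gene Nr1h2 (ENSMUSG00000060601), expressed in most cell types, had 90.8, 81.8 and 66.0 CPM in the knockout libraries, against 85.7, 77.7 and 78.3 CPM in the controls. The knockout values spread on both sides of the control values. Its log2 fold change was −0.03 with a 95% interval from −0.33 to 0.27 (limma adjusted p = 0.921), which corresponds to 0.793-fold to 1.21-fold. The sign of this small value turned under both other scalings, with 0.00070 after quantile normalisation and 0.0043 after scaling to totals. The gene of their partner, Rxra (ENSMUSG00000015846), had 99.3, 95.6 and 86.9 CPM in the knockout libraries, against 98.3, 94.9 and 104 CPM in the controls. Its groups overlapped as well, with a log2 fold change of −0.08 and a 95% interval from −0.30 to 0.14 (limma adjusted p = 0.699). The ratio of Nr1h3 to Nr1h2 within a library was 0.301, 0.242 and 0.499 in the knockouts and 0.465, 0.432 and 0.524 in the controls. Knockout S599 lay among the controls, and the mean log2 difference of −0.51 between genotypes gave an exact two-sided permutation p of 0.3, so a difference in change between the paralogues was not shown.

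Of the 4 transport genes, 3 had lower values in the knockout arches with 95% intervals below 0. Abcg1 (ENSMUSG00000024030), the transporter that passes cholesterol to high-density lipoprotein, had 112, 66.9 and 149 CPM in knockouts S595, S598 and S599, against 156, 260 and 275 CPM in controls S591, S592 and S594. Knockout S599 and control S591 came close to each other, and every knockout value was below every control value. The means were 109 ± 41.2 and 230 ± 64.8 CPM (SD, n = 3 each), with a log2 fold change of −1.10, a standard error of 0.32 and an interval from −1.84 to −0.36 (limma adjusted p = 0.137, DESeq2 adjusted p = 0.0196).

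Pltp (ENSMUSG00000017754), the phospholipid transfer protein that remodels high-density lipoprotein, had 244, 188 and 370 CPM in the knockout libraries, against 387, 542 and 659 CPM in the controls. Again the groups did not overlap, with the gap between S599 and S591. This gave a log2 fold change of −1.01 (standard error 0.28; limma adjusted p = 0.129, the lowest of the 10, and DESeq2 adjusted p = 0.0166). Abca1 (ENSMUSG00000015243), the exporter that lipidates apolipoprotein A-I, had 358, 275 and 563 CPM in knockouts S595, S598 and S599, against 508, 726 and 774 CPM in controls S591, S592 and S594. Knockout S599 exceeded control S591, so the groups overlapped. Means were 398 ± 148 and 669 ± 142 CPM (SD, n = 3 each), with a log2 fold change of −0.79, a standard error of 0.28 and an interval from −1.43 to −0.14 (limma adjusted p = 0.180, DESeq2 adjusted p = 0.0894).

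Scarb1 (ENSMUSG00000037936), the scavenger receptor that exchanges cholesterol with high-density lipoprotein in both directions, had overlapping groups and an interval that included 0. It had 27.0, 25.1 and 36.7 CPM in the knockout libraries, against 34.6, 24.7 and 42.9 CPM in the controls, with control S592 the lowest of all. Its log2 fold change was −0.18 with a 95% interval from −0.70 to 0.34 (limma adjusted p = 0.695). The ratio of Abca1 to Abcg1 was 3.19, 4.11 and 3.77 in the knockouts and 3.26, 2.80 and 2.82 in the controls (log2 difference 0.31, exact two-sided permutation p = 0.2). Knockout S595 lay inside the control range.

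**Figure D2:**
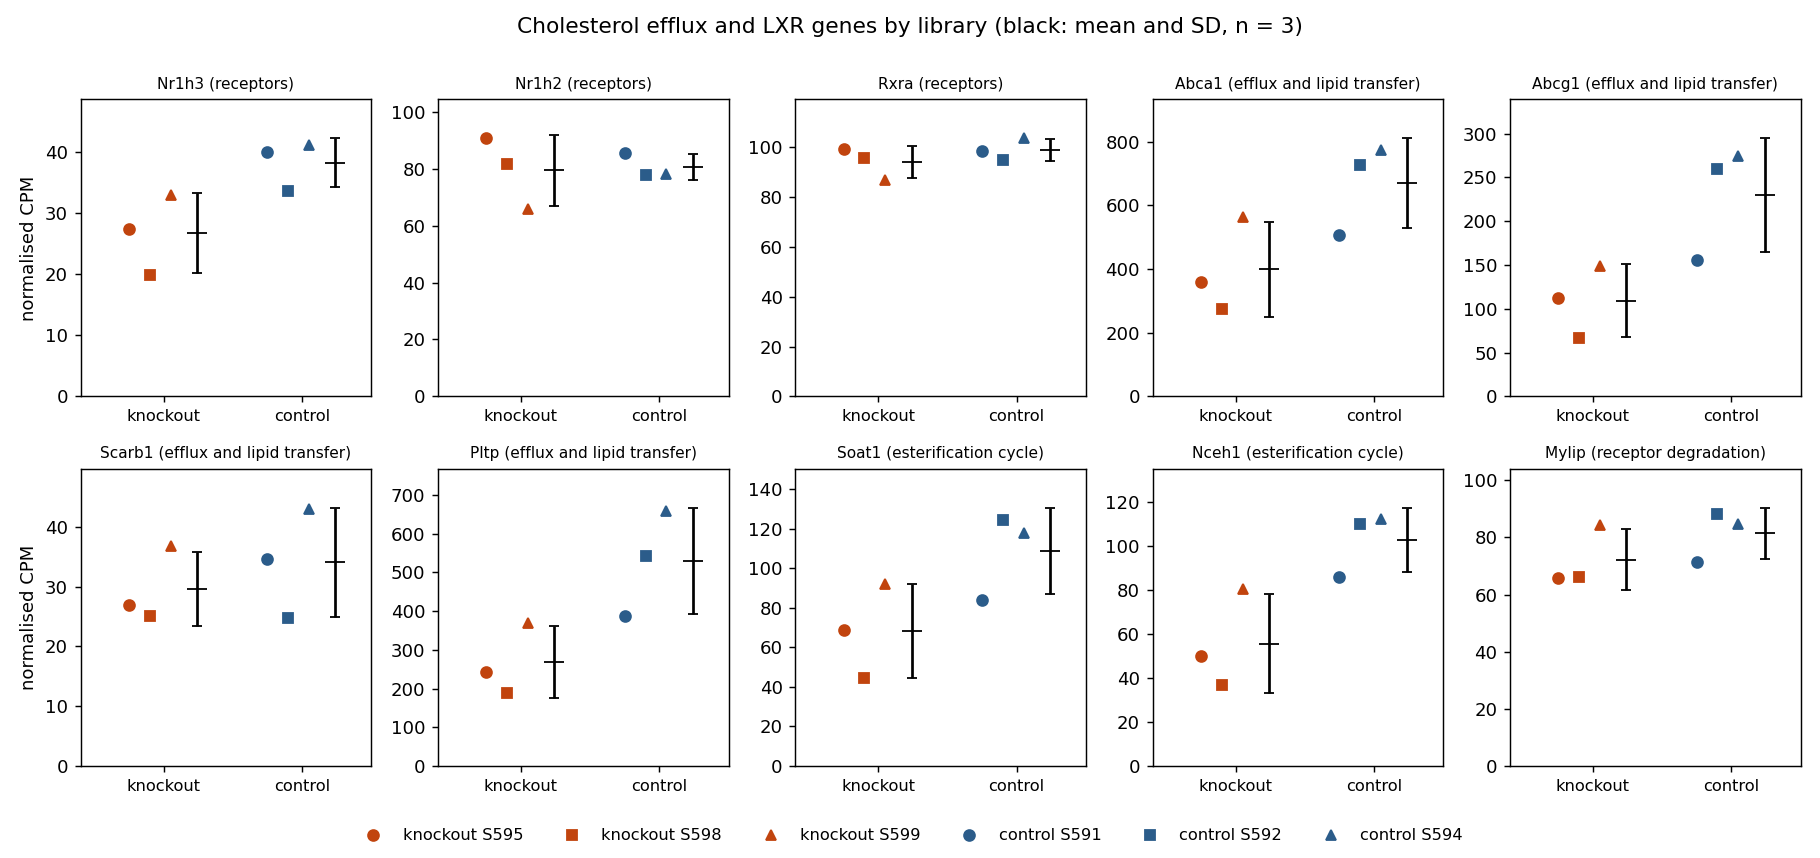
Normalised CPM (y axes, from 0) of the 10 genes in each library, knockout left and control right, with the mean and SD of 3 libraries in black. Nr1h2 and Rxra stand at like heights in both groups, while for Abca1, Abcg1, Pltp, Soat1 and Nceh1 knockout S598 is the lowest library and knockout S599 lies near control S591.

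Both genes of the esterification cycle had lower knockout means. Nceh1 (ENSMUSG00000027698), the neutral cholesterol ester hydrolase that frees stored cholesterol, had 50.0, 36.7 and 80.6 CPM in the knockout libraries, against 86.1, 110 and 112 CPM in the controls. The groups did not overlap. The difference was −0.94 on the log2 scale (standard error 0.26), with an interval from −1.55 to −0.32 (limma adjusted p = 0.132, DESeq2 adjusted p = 0.0381). Soat1 (ENSMUSG00000026600), the acyltransferase that makes cholesteryl ester in macrophages, had 68.7, 44.4 and 91.8 CPM in the knockout libraries, against 84.0, 125 and 118 CPM in the controls. Knockout S599 exceeded control S591. The difference was −0.70 on the log2 scale (standard error 0.26; limma adjusted p = 0.203, DESeq2 adjusted p = 0.144).

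The balance of the esterifying over the hydrolysing gene was taken as a ratio within each library. Soat1 relative to Nceh1 was 1.37, 1.21 and 1.14 in knockouts S595, S598 and S599, against 0.975, 1.13 and 1.05 in the controls. Every knockout ratio was above every control ratio, though S599 and S592 were separated by very little. The mean log2 difference was 0.24, and the exact two-sided permutation p of 0.1 is the smallest that 3 against 3 libraries allow. Adjusted over the 3 ratios examined, which were chosen after the values were seen, p was 0.3 for each, so a difference in this balance was not shown.

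Mylip (ENSMUSG00000038175), the ubiquitin ligase induced by LXR that marks lipoprotein receptors for breakdown, had 66.0, 66.1 and 84.5 CPM in the knockout libraries, against 71.3, 88.2 and 84.8 CPM in the controls. The ranges overlapped. Its log2 fold change was −0.18 with a 95% interval from −0.49 to 0.14 (limma adjusted p = 0.515).

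Per length, the genes kept wide differences in level. On the scale of CPM per kilobase of annotated exon, Pltp averaged 114 ± 39.5 in the knockout and 225 ± 58.0 in the control arches (SD, n = 3 each), above all others in both groups. Abca1 averaged 38.8 ± 14.5 and 65.2 ± 13.8, and Nr1h2 averaged 39.6 ± 6.26 and 40.2 ± 2.22. Abca1 was above Nr1h2 in all 3 controls by library ranges, while in the knockout arches the ranges of these neighbours overlapped. Abcg1 averaged 16.0 ± 6.04 in the knockout and 33.7 ± 9.49 in the control arches. Of the receptors, Rxra averaged 18.4 ± 1.25 and 19.4 ± 0.861, and Nr1h3 was lower with 12.4 ± 3.07 and 17.8 ± 1.87. Soat1 was the lowest of the 10 in both groups with 8.15 ± 2.83 and 13.0 ± 2.59. In the control order the neighbours from Nr1h2 downward (Abcg1, Mylip, Nceh1, Rxra, Nr1h3, Scarb1 and Soat1) each overlapped the next. In the knockout order (Pltp, Nr1h2, Abca1, Mylip, Rxra, Abcg1, Nr1h3, Scarb1, Nceh1 and Soat1) only Pltp from Nr1h2, Abca1 from Mylip and Mylip from Rxra did not overlap.

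Likeness of pattern was measured as the root mean square difference of log2(CPM + 1), each gene centred on its mean over the 6 libraries, a measure that also places genes of little variation near each other. The closest pair of the 10 was Nr1h2 and Rxra (0.0997), both of which varied little over the libraries (SD of log2(CPM + 1) 0.16 and 0.08, n = 6). Abca1 was nearest to Nceh1 (0.103) and Soat1 to Abca1 (0.103). Pltp was nearest to Abca1 (0.13), and Abcg1 to Pltp (0.14). Nr1h3 had no near neighbour in the set (0.24 to Scarb1). Over all listed genes the patterns most like that of Abca1 were those of the unconventional myosin gene Myo5a (0.057), an identifier without a symbol here (ENSMUSG00000086609, 0.061) and the myeloid transcription factor gene Irf8 (0.064). ENSMUSG00000086609 had only 0.723 to 3.55 CPM, a level at which the log2(CPM + 1) scale compresses differences. Irf8 had 26.7, 21.3 and 40.2 CPM in the knockout libraries, against 37.0, 58.9 and 61.6 CPM in the controls. The patterns most like Nr1h3 were those of Zeb2os (0.063), Uhmk1 (0.068) and Shq1 (0.072). Zeb2os is an antisense gene, and its reads are uncertain because no strand setting is given.

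Macrophage markers had lower means in the knockout arches, as did each of the 10 genes. The 95% intervals of Abca1, Abcg1, Pltp, Soat1, Nceh1 and Nr1h3 lay below 0. Those of Nr1h2, Rxra, Scarb1 and Mylip included 0. All 19 markers on the list had negative fold changes (median −1.11), and 15 of the 19 had groups that did not overlap with the knockout lower, against 14.2% of all genes. By limma 0 of the 19 passed the adjusted threshold and 19 had an unadjusted p under 0.05 on the lower side, against 12.0% of all genes. The edgeR test and limma-voom called 0 of the 19 each, and DESeq2 called 16, where it called 4.56% of all genes lower. Each marker had 83 or more reads in every library. Their summed level was 6416, 4265 and 10965 CPM in knockouts S595, S598 and S599, against 11348, 16858 and 17884 CPM in controls S591, S592 and S594. As with Abca1, S598 was lowest and S599 lay close to S591. The part of macrophage content in the differences above was not tested, and the levels relative to the markers are given as values.

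Relative to 1000 CPM of summed macrophage markers, Abcg1 had 17.5, 15.7 and 13.6 CPM in the knockouts, against 13.7, 15.4 and 15.4 CPM in the controls. These ranges overlapped, with means of 15.6 ± 1.93 and 14.8 ± 0.963 (SD, n = 3 each). Pltp had 38.0, 44.2 and 33.7 CPM in the knockouts, against 34.1, 32.2 and 36.9 CPM in the controls, which also overlapped. The values of Nceh1 were 7.79, 8.60 and 7.35 CPM in the knockouts, against 7.59, 6.54 and 6.28 CPM in the controls, and those ranges overlapped too. Abca1 was higher by this measure in every knockout library, with 55.8, 64.4 and 51.3 CPM against 44.8, 43.1 and 43.3 CPM in the controls. Soat1 was likewise higher in every knockout library, with 10.7, 10.4 and 8.37 CPM against 7.40, 7.39 and 6.58 CPM in the controls. In all, 4 of the 10 (Abca1, Soat1, Scarb1 and Mylip) were higher and 0 lower with groups that did not overlap, where 47.2% of all genes were higher and 0.231% lower by the same measure. With the geometric mean of the markers in place of their sum, a measure chosen after seeing the data, Pltp (1.63 to 1.80 in the knockouts and 1.47 to 1.57 in the controls) and Rxra (0.413 to 0.913 in the knockouts and 0.246 to 0.392 in the controls) were also higher without overlap, while Abcg1 overlapped. That made 6 of the 10 higher and 0 lower, where 67.3% of all genes were higher and 0.315% lower by this measure.

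**Figure D3:**
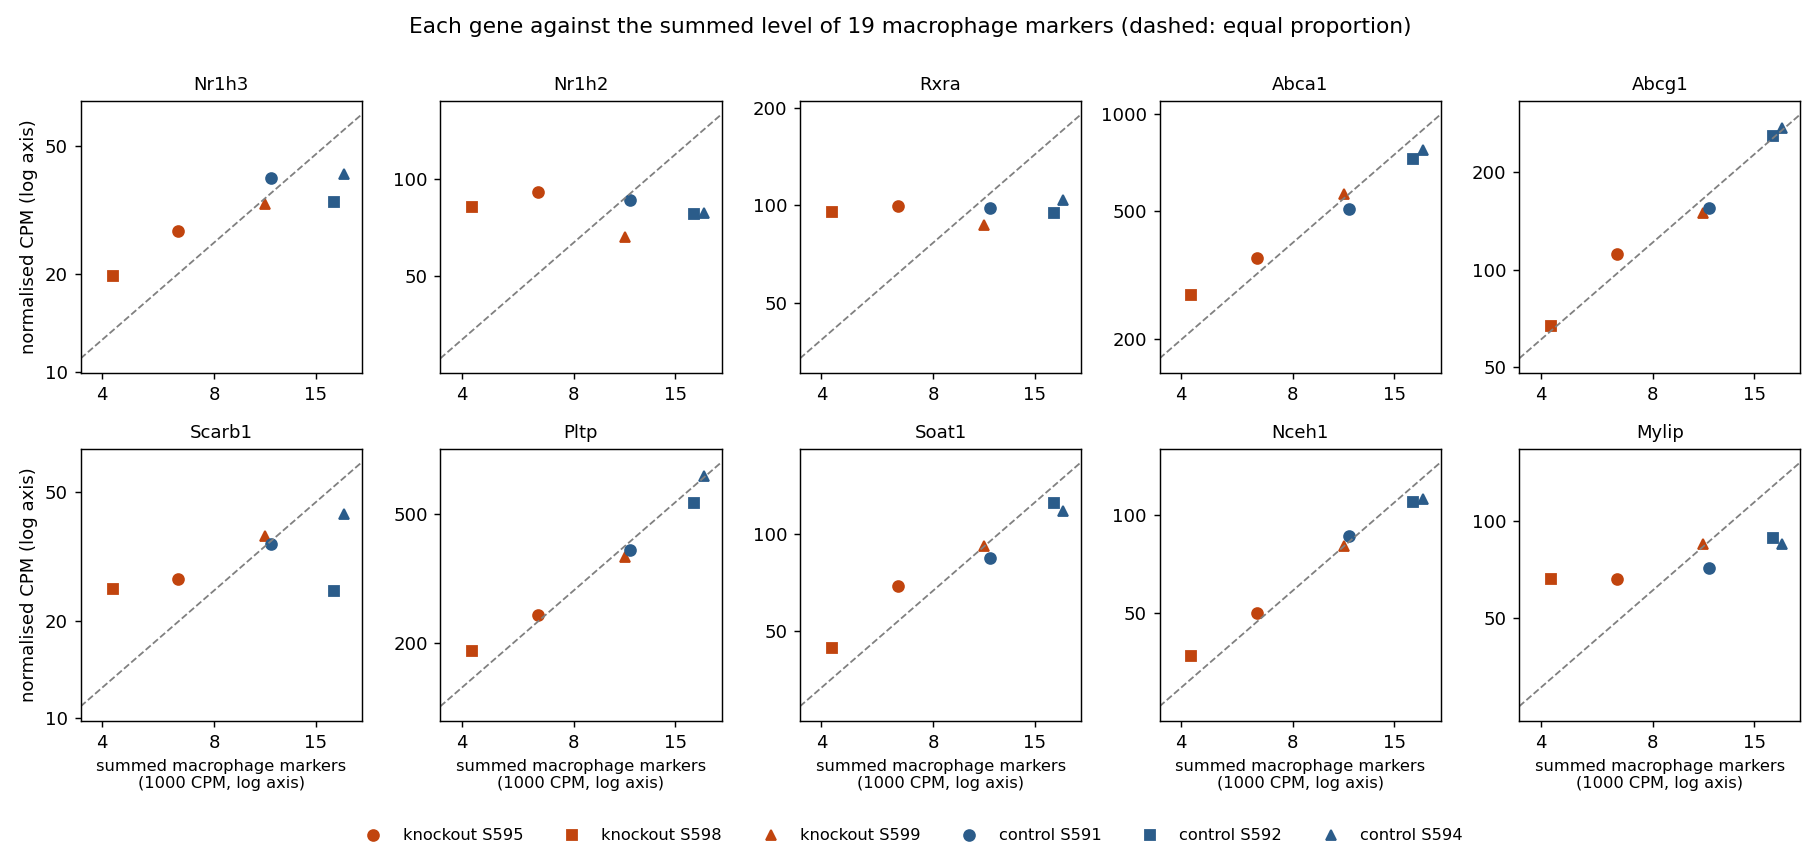
Normalised CPM of each gene (y axes, log scale) against the summed CPM of 19 macrophage markers (x axes, log scale, in 1000 CPM), 1 point per library. The dashed line marks a constant ratio to the markers through the geometric centre of the points; Abcg1, Pltp and Nceh1 lie along it, and Nr1h2 and Rxra stay level from 4265 CPM of markers in knockout S598 to 17884 CPM in control S594.

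Beyond these 10, 44 other genes of the pathway were listed by role, of which 42 were measured. By limma 0 of the 42 passed the adjusted threshold, and edgeR and limma-voom called 0 each. DESeq2 gave an adjusted p to 40 of the 42 and called 5 lower and 1 higher. Over all genes it called 4.56% lower and 2.13% higher. With an unadjusted p under 0.05 there were 11 on the lower side and 1 on the higher side, where 12.0% and 8.04% of all genes were lower and higher. The median log2 fold change was −0.19. Without knockout S598 or without control S594 the total of 12 was 7 (share of all genes not counted). The median was −0.06 without control S591 and −0.30 without control S592. In 13 the groups did not overlap with the knockout lower and in 3 with the knockout higher, where the shares over all genes were 14.2% and 11.3%.

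Of the 4 enzymes that make or clear oxysterols, Ch25h, the cholesterol 25-hydroxylase that produces an LXR ligand, had the lowest values in the knockout arches relative to the controls. It had 0.989, 1.78 and 1.34 CPM in the knockout libraries, against 4.89, 6.37 and 8.49 CPM in the controls. The groups were well apart, with 6 to 68 reads per library. The control mean was 4.80 times the knockout mean, with a log2 fold change of −1.66 on the log2(CPM + 1) scale, which understates the change of so low a gene (limma adjusted p = 0.107, called lower by DESeq2, by array weights and without control S591, where 3.29% of all genes were called lower and 1.41% higher). Cyp7b1, which hydroxylates oxysterols for their removal, had 1.75, 1.40 and 1.34 CPM in the knockout libraries, against 2.93, 2.75 and 3.90 CPM in the controls (log2 fold change −0.74, limma adjusted p = 0.132).

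In the sterol transport and hydrolysis list, 4 of 13 measured genes stood lower with an unadjusted p under 0.05 and 0 higher (12.0% and 8.04% of all genes), with a median log2 fold change of −0.24. Npc2 takes part in moving cholesterol out of the lysosome. It had 243, 187 and 288 CPM in the knockout libraries, against 384, 447 and 428 CPM in the controls. Its groups were fully apart, with a log2 fold change of −0.83 and a standard error of 0.17 (limma adjusted p = 0.107, called lower by DESeq2, by array weights and without control S591). Gramd1b, an endoplasmic reticulum protein that takes cholesterol from the plasma membrane, had 37.8, 34.5 and 50.4 CPM in the knockout libraries, against 57.1, 62.4 and 75.3 CPM in the controls. Its log2 fold change was −0.66 (limma adjusted p = 0.121, called lower by DESeq2 and by array weights).

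Among other LXR targets, 4 of 12 measured genes stood lower with an unadjusted p under 0.05 and 0 higher (12.0% and 8.04% of all genes), with a median of −0.28. Lpl, the lipoprotein lipase gene, had 795, 471 and 904 CPM in the knockout libraries, against 1272, 1375 and 1230 CPM in the controls, with no overlap (log2 fold change −0.89, limma adjusted p = 0.129, called lower by DESeq2 and by array weights). Arl4c, the gene of a small GTPase that aids transport of cholesterol to Abca1, had 25.8, 25.6 and 33.3 CPM in the knockout libraries, against 33.0, 59.3 and 65.2 CPM in the controls, where knockout S599 just exceeded control S591 (log2 fold change −0.82, limma adjusted p = 0.148, called lower by DESeq2, by array weights and without control S591). The apolipoprotein E gene Apoe, disrupted in both groups and itself an LXR target, had 8.29, 7.76 and 7.94 CPM in the knockout libraries, against 8.08, 4.63 and 12.4 CPM in the controls.

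Of the lipoprotein receptors that Mylip degrades, Vldlr and Lrp8 stood on opposite sides. Vldlr had 177, 245 and 200 CPM in the knockout libraries, against 162, 106 and 79.7 CPM in the controls, without overlap (log2 fold change 0.88, limma adjusted p = 0.132, called higher by DESeq2, by array weights and without control S591). Lrp8 had 6.92, 6.80 and 7.00 CPM in the knockout libraries, against 8.26, 10.9 and 11.2 CPM in the controls, also without overlap (log2 fold change −0.48, limma adjusted p = 0.179).

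Receptor partners, coregulators and fatty acid receptors, listed together, had the narrowest range, from −0.30 to 0.23. In this list 0 of 10 passed an unadjusted p of 0.05 in limma. The fatty acid receptor gene Ppard had 31.3, 31.0 and 29.3 CPM in the knockout libraries, against 33.1, 36.8 and 39.5 CPM in the controls (log2 fold change −0.25, limma adjusted p = 0.265). The coactivator gene Ncoa2 had 59.1, 65.4 and 67.6 CPM in the knockout libraries, against 58.9, 52.6 and 54.8 CPM in the controls (log2 fold change 0.20, limma adjusted p = 0.305).

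**Figure D4:**
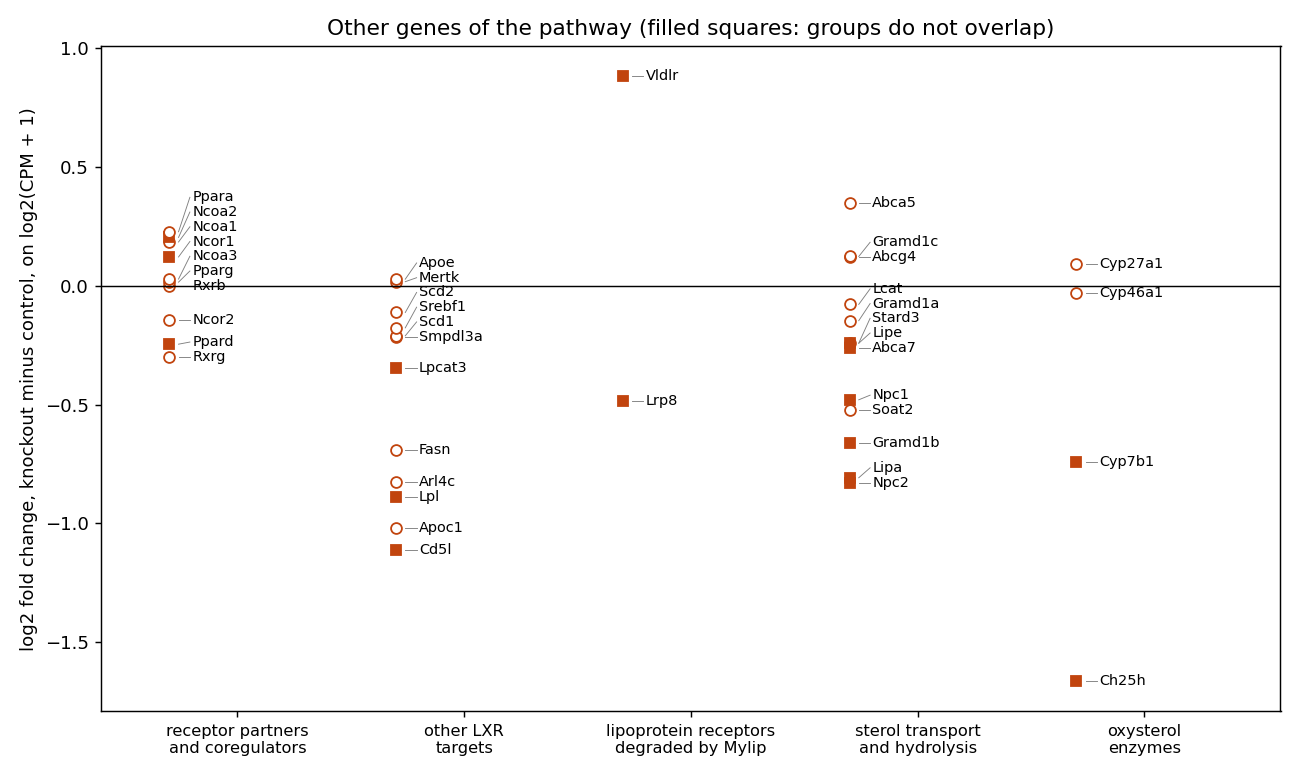
Log2 fold change (knockout minus control, y axis) of other pathway genes measured, grouped by role along the x axis, with filled squares where the 3 knockout and 3 control libraries do not overlap. Ch25h lies lowest at −1.66 and Vldlr highest at 0.88.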

How the data were processed

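TruSeq libraries were made from polyA RNA of 3 knockout and 3 control aortic arches, per the labels' protocols. Per the submitters' processing notes, the tools were Bowtie 0.12.7, RSEM 1.16, cutadapt 1.6.1, CASAVA 1.8, edgeR and limma, and the build NCBIM37, with no roles named. The annotation, strand setting and filter are not given there. The authors deposited a normalised signal. Checked on the values, it is (reads + 0.5) in CPM after TMM scaling. Whole reads were recovered from 100% of values at a tolerance of 0.01. The columns carry the genotype and a number found in no label, so no pairing was made. Libraries of a group differed beyond sampling noise (chi-square per degree of freedom 12.6 to 34.3). The highest values, 32.5 and 34.3, were those of control S591 with controls S592 and S594, while all other pairs had 12.6 to 18.4.

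Genotypes were compared with limma 3.58.1 (R 4.3.3) on log2(value + 1), intensity trend, genotype as the 1 factor, two-sided, after a filter of at least 1 CPM in at least 3 libraries that removed no gene. Single values had an exact permutation test, whose smallest p here is 0.1. By this test p was 0.1 for Abcg1, Pltp, Nceh1 and Nr1h3, and 0.2 for Abca1, Soat1 and Mylip. It was 0.5 for Rxra, 0.7 for Scarb1 and 0.9 for Nr1h2. Alternatives were other pseudocounts (0.5 and 0.1), filters, scalings, thresholds, array weights, libraries left out, and edgeR 4.0.16, DESeq2 1.42.0 and limma-voom on the recovered reads. The fit was tested on simulated data. Symbols came from an annotation of another release (13828 of 14298 identifiers matched), exon lengths from GENCODE M21, and promoter sequences from RefSeq on GRCm38.p6. Neither is the build in the notes, so coordinates are for the printed promoter alone.

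Genes named were the 10, Rbpj, Cdh5, for each pathway list the 2 with the smallest p, and for Abca1 and Nr1h3 the 3 most like genes. Apoe was added after its values were seen. One pathway gene is counted but not reported by name here. The genes, lists, tests and alternatives were chosen with earlier results of these data known.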

Additional observations from a re-analysis of the deposited data

How the results depend on the processing

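Of the 10 genes, Abca1, Abcg1, Pltp, Soat1, Nceh1, Nr1h3, Scarb1 and Mylip kept a negative log2 fold change under all 18 alternatives. The ranges were −1.07 to −0.55 for Abca1, −1.37 to −0.78 for Abcg1, −1.27 to −0.78 for Pltp and −1.23 to −0.68 for Nceh1. They were −0.94 to −0.43 for Soat1, −0.69 to −0.33 for Nr1h3 and −0.29 to −0.12 for Mylip. Scarb1 ran from −0.39 to −0.0018, the latter without control S594 and near 0. Among the 18, the other filters and the fit without the intensity trend cannot alter a fold change, so their sign was fixed in advance. Nr1h2 turned to 0.00070 after quantile normalisation, 0.0043 with scaling to totals, 0.015 without control S591, 0.097 without knockout S599 and 0.17 without S598 and S599, and Rxra to 0.0058 in the last of these, where the spread of the lone knockout library is taken from the controls. With 1 library left out Nr1h2 ran from −0.13 to 0.097. The cause of these turns was not tested. Of the 10 genes, 3 passed the adjusted threshold with array weights and 3 with DESeq2. For the 42 pathway genes the counts were 7 with array weights, 6 with DESeq2 (40 of them given an adjusted p) and 0 to 5 with 1 library left out, the 5 without control S591. At an unadjusted p of 0.05, leaving out 1 library gave 3 to 6 of the 10 and 7 to 15 of the 42. The share of all genes at that threshold was counted for the main fit alone, so these counts cannot be set against a background.

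Over all 14298 genes limma called 3, against 0 with a pseudocount of 0.5, 0 with 0.1, 0 with at least 5 CPM, 1 without the intensity trend, 1011 with array weights, 0 with edgeR, 900 with DESeq2, 0 with limma-voom, 0 without S598 and S599, and 10 at a threshold of 0.1. Leaving out 1 library gave 0 to 671, the 671 without control S591. No paired analysis was possible because the columns carry no replicate number of the labels. With 3 mice a group, the 95% intervals of Scarb1, Mylip, Nr1h2 and Rxra included 0. Differences of either sign within those intervals remain compatible with the data. The intervals of Abca1, Abcg1, Pltp, Soat1, Nceh1 and Nr1h3 lay below 0. All these intervals are unadjusted for the number of genes tested, and by limma 0 of the 10 genes passed the adjusted threshold. Ch25h, Cyp7b1, Soat2, Cyp46a1, Apoc1, Lcat and Rxrg rest on few reads.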
